A study of Rattus norvegicus with 9 samples.

Results

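The genes described here are transcripts that Wnt/beta-catenin signalling switches on in the hepatocytes around the central vein of the liver lobule. They are the glutamine synthetase gene Glul, the ornithine aminotransferase gene Oat, the glutamate transporter Slc1a2, the ammonia transporter Rhbg, the feedback regulators Axin2, Nkd1, Rnf43 and Znrf3, the R-spondin receptor Lgr5 and the transcription factor Tbx3. They were chosen by name, 10 in all. Of these, 8 had a row of their own among the 24496 genes of the count table, and Znrf3 and Rhbg were not analysed here. Lgr5 was below the filter on low counts, so 7 of the 11924 genes that entered the test are genes of this set.

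Livers came from 9 female Wistar rats that began a western diet at 10 weeks of age, were ovariectomised 6 weeks later and were treated with degarelix, which blocks the receptor for gonadotropin-releasing hormone and so lowers the animals' own gonadotropins. The pumps implanted next held follicle-stimulating hormone (FSH) for 4 rats, at a daily 6 µg per kg, and vehicle alone for 5 rats. After 12 days of limited food and 7 days of free feeding, tissue was collected at 19 weeks of age following a 4 h fast. Each library is 1 animal, and totals lay between 23430807 and 27008941 counts with FSH and between 19295580 and 28672439 counts with vehicle. Neither group had intact ovaries or was free of degarelix, and no group without these treatments was sequenced. All 12 genes of a hepatocyte marker list were detected, with summed levels of 196506 to 293140 CPM (counts scaled to the library's size) in FSH livers and 214729 to 260876 CPM in vehicle livers.

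In the Wnt/beta-catenin pathway, secreted Wnt proteins bind Frizzled and LRP receptors, beta-catenin escapes degradation and, with TCF/LEF factors on DNA, activates target genes. In the mouse liver, endothelial cells of the central vein supply Wnt ligands and R-spondin 3, which keep neighbouring hepatocytes in the pericentral state. That state includes the capture of ammonia as glutamine. Several targets, among them Axin2, Nkd1, Rnf43 and Znrf3, restrain the pathway that induces them and are used as readouts of its activity. Whole liver was sequenced, so fewer pericentral cells and less RNA per pericentral cell cannot be told apart.

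The start-site regions of the feedback regulators are shown because TCF/LEF factors bind DNA. Matching by symbol to RefSeq promoter windows of the GRCr8 build (250 bases before to 50 after a start site) gave windows for 6 of the 8 genes with a row. The search was for the TCF/LEF core as CTTTGAA or CTTTGAT on either strand. The windows of Axin2 (chr10:94398535-94398834, plus strand), Nkd1 (chr19:34722797-34723096, minus strand) and Rnf43 (chr10:72963116-72963415, plus strand) read, 5′ to 3′ along the gene and with matches in capitals:
Axin2: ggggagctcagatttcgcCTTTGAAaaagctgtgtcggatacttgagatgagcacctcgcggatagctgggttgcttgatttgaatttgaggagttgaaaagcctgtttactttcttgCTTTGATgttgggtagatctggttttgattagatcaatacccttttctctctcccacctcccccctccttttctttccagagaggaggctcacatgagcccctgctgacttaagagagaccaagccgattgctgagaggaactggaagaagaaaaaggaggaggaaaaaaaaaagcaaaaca
Nkd1: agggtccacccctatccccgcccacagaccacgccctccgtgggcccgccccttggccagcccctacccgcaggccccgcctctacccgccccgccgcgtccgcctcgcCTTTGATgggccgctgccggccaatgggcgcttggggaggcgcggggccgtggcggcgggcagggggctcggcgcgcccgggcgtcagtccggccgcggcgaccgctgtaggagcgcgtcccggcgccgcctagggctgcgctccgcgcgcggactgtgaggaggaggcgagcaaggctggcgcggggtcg
Rnf43: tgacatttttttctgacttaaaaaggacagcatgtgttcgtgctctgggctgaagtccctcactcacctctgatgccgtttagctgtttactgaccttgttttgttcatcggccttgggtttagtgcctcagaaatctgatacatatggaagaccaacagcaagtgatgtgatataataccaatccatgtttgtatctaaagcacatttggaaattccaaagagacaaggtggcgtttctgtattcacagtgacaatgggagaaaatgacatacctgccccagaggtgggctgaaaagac

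The Axin2 window held 2 matches, starting 232 and 132 bases before the start site, and the Nkd1 window held 1, starting 141 bases before it. The Rnf43 window held none, nor did that of Oat. Glul and Slc1a2 each have 2 annotated windows, of which 1 each held a match. Of all 33469 windows in the table, 8.73% held at least 1 match and 0.571% held 2 or more. A match describes these letters and not the binding of a factor.

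None of the 7 tested genes passed the threshold for a difference between FSH and vehicle, an adjusted p (FDR) of 0.05 in edgeR's quasi-likelihood test over all 11924 genes, 0.0335% of which passed. DESeq2 also called 0 of the 7. At an unadjusted edgeR p under 0.05 there was 1, Nkd1, where 11.6% of all tested genes lay. The median log2 fold change (FSH over vehicle) of the 7 was −0.20, against 0.00189 over all tested genes, and 5 of the 7 were negative, against 49.5% of all genes. When single livers were left out, the median changed sign only without vehicle replicate 2. In that fit it was 0.02, and 3 of the 7 were negative, namely Oat, Rnf43 and Nkd1. Without FSH replicate 3, 4 were negative and the median was −0.23. Without FSH replicate 4 the median was −0.05. Without FSH replicate 1, 6 were negative and the median was −0.37. Leaving out vehicle replicate 1, 3 or 4 also gave 6 negative, with medians of −0.20, −0.23 and −0.33.

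Glul encodes glutamine synthetase, which fixes ammonia to glutamate. It stood at 683, 612, 663 and 621 CPM in FSH replicates 1 to 4, and at 493, 1051, 505, 436 and 688 CPM in vehicle replicates 1 to 5. The FSH animals lay close together and inside the vehicle range, with 3 vehicle livers below all of them and 2 above. The means were 645 ± 33.9 CPM with FSH (SD, n = 4) and 635 ± 251 CPM with vehicle (SD, n = 5). The log2 fold change was 0.02 (SE 0.23, 95% interval −0.49 to 0.53, adjusted p = 0.982 in edgeR). Without vehicle replicate 2 it was 0.28 (SE 0.14, adjusted p = 0.519 in edgeR), and the vehicle mean was 531 ± 109 CPM.

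Oat encodes ornithine aminotransferase, the mitochondrial enzyme that passes the amino group of ornithine towards glutamate. Its values were 506, 430, 253 and 604 CPM in FSH replicates 1 to 4, against 1571, 656, 566, 460 and 656 CPM in vehicle replicates 1 to 5. No FSH liver reached the vehicle median of 656 CPM, but 2 vehicle livers lay inside the FSH range, and vehicle replicate 1 was 2.39 times the next library. The means were 448 ± 148 CPM with FSH (SD, n = 4) and 782 ± 449 CPM with vehicle (SD, n = 5), a log2 fold change of −0.80 (SE 0.37, 95% interval −1.61 to 0.01, adjusted p = 0.438 in edgeR). Without vehicle replicate 1 the value was −0.38 (SE 0.24, adjusted p = 0.667 in edgeR).

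Slc1a2, which encodes a sodium-coupled glutamate transporter, had 12.0, 7.35, 10.4 and 6.01 CPM in FSH livers and 10.1, 15.9, 9.22, 6.35 and 9.78 CPM in vehicle livers, in replicate order. The groups overlapped over most of their range, and only vehicle replicate 2 lay above all FSH livers. Its log2 fold change was −0.20 (SE 0.27, 95% interval −0.78 to 0.39, adjusted p = 0.822 in edgeR). It was 0.02 without vehicle replicate 2.

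Nkd1 was the only gene of the set whose groups did not overlap. It encodes an intracellular antagonist that binds Dishevelled. Its counts were few, 57 to 113 per library, which gave 2.90, 2.35, 2.85 and 2.59 CPM in FSH replicates 1 to 4 and 2.99, 4.07, 3.18, 3.08 and 3.88 CPM in vehicle replicates 1 to 5. Every FSH liver lay below every vehicle liver, by the narrow margin between FSH replicate 1 and vehicle replicate 1. Among all tested genes 1.92% had the same complete order. The means were 2.67 ± 0.253 CPM with FSH (SD, n = 4) and 3.44 ± 0.499 CPM with vehicle (SD, n = 5). The log2 fold change of −0.36 (SE 0.14, 95% interval −0.68 to −0.04) did not pass after adjustment (adjusted p = 0.387 in edgeR), and its p ranked 892 of 11924. Without vehicle replicate 2 it was −0.30 (SE 0.14, adjusted p = 0.509 in edgeR).

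Axin2 encodes a scaffold of the complex that degrades beta-catenin, and its transcript is among the most general targets of the pathway. It stood at 16.4, 13.7, 6.75 and 10.7 CPM in FSH replicates 1 to 4, and at 11.6, 19.5, 11.1, 9.16 and 10.8 CPM in vehicle replicates 1 to 5. FSH replicate 3 had the lowest and vehicle replicate 2 the highest value, and the other vehicle livers lay inside the FSH range. The log2 fold change was −0.07 (SE 0.27, 95% interval −0.67 to 0.53, adjusted p = 0.950 in edgeR). Leaving out FSH replicate 3 gave 0.12, and leaving out vehicle replicate 2 gave 0.16.

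Rnf43 encodes a membrane ubiquitin ligase that removes Frizzled receptors from the cell surface, and its profile resembled that of Axin2. It had 16.6, 13.2, 7.17 and 9.51 CPM in FSH livers and 14.1, 27.3, 11.2, 13.2 and 10.9 CPM in vehicle livers, in replicate order. Again FSH replicate 3 was lowest and vehicle replicate 2 highest, at 1.64 times the next library. The log2 fold change of −0.40 (SE 0.31, 95% interval −1.10 to 0.29, adjusted p = 0.665 in edgeR) was −0.09 without vehicle replicate 2.

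Lgr5, a receptor for R-spondins and a marker of stem cells in the gut, was scarce. It had 7, 9, 9 and 4 counts in FSH replicates 1 to 4, and 4, 42, 9, 3 and 7 counts in vehicle replicates 1 to 5. In vehicle replicate 2 that was 1.51 CPM, 4.06 times the next library, while the other 8 livers lay between 0.118 and 0.372 CPM. Lgr5 did not enter the test. Without the filter on low counts its log2 fold change was −0.84 (SE 0.66, adjusted p = 0.714 in edgeR).

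Tbx3 encodes a T-box repressor that beta-catenin induces in liver cells. Its values were 6.95, 8.97, 10.6 and 8.47 CPM in FSH livers and 8.28, 10.6, 10.04, 4.70 and 5.10 CPM in vehicle livers, in replicate order. FSH replicate 3, lowest for Oat, Axin2 and Rnf43, was highest here, but only 1.01 times vehicle replicate 2. Vehicle replicates 4 and 5 were below all other libraries. The log2 fold change was 0.17 (SE 0.25, 95% interval −0.37 to 0.72, adjusted p = 0.834 in edgeR).

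**Figure D1:**
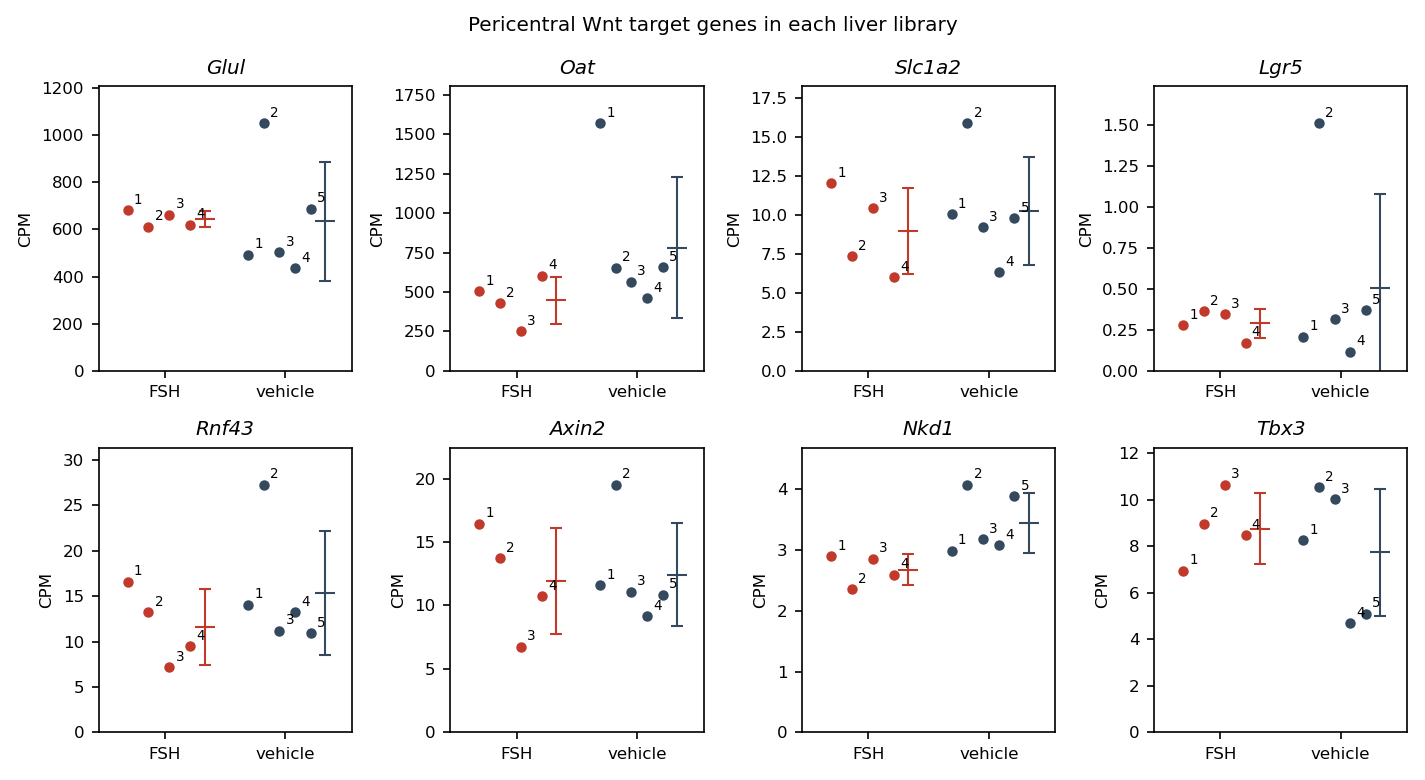
Level of each gene in CPM (vertical axes, linear from 0) in 4 FSH livers (left, red) and 5 vehicle livers (right, blue). Points are libraries labelled by replicate number, and the bar beside them is the mean ± SD, which for vehicle Lgr5 extends below the axis. Vehicle replicate 2 is the top point for Glul, Slc1a2, Lgr5, Rnf43, Axin2 and Nkd1, and vehicle replicate 1 for Oat.

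As ratios of FSH over vehicle, the 95% intervals ran from 0.713 to 1.45 for Glul, from 0.630 to 1.45 for Axin2 and from 0.327 to 1.01 for Oat, so each spans no change. The interval of Nkd1, from 0.625 to 0.969, lies below it, but these intervals are not adjusted for the number of genes tested. The unadjusted edgeR p of Nkd1 was over 0.05 without FSH replicate 2 or 4 or vehicle replicate 2 or 5. It stayed under 0.05 without any other single liver.

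**Figure D2:**
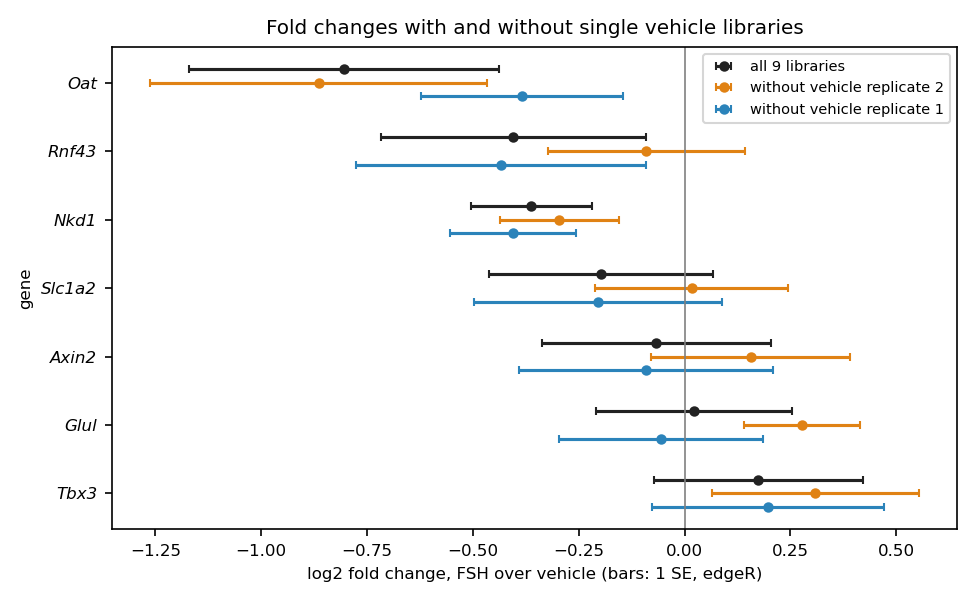
Log2 fold change, FSH over vehicle (horizontal axis), of the 7 tested genes with bars of 1 SE, for all 9 libraries (black), without vehicle replicate 2 (orange) and without vehicle replicate 1 (blue). Without vehicle replicate 2, Glul is at 0.28 (0.02 with all libraries) and Rnf43 at −0.09 (−0.40 with all), and without vehicle replicate 1 Oat is at −0.38 (−0.80 with all).

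The spread between animals of the same group was large for most of the set. The SD of log2 CPM about the group means had a median of 0.461 over the 7 tested genes, against 0.198 over all 11924. For 6 of the 7 it lay above the 80th percentile of all tested genes, between 0.390 for Glul and 0.623 for Oat. Nkd1 was the exception at 0.175, the 42.9th percentile. Genes of similar abundance varied less: those within 1.2-fold of the mean CPM of Rnf43 (1052 genes) had a median SD of 0.161, against 0.532 for Rnf43 itself. Around Axin2 the corresponding values were 0.167 for 1043 genes and 0.476 for Axin2. Around Nkd1 they were 0.272 for 652 genes and 0.175 for Nkd1.

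Within the groups the contrast was sharpest for Glul, whose SD of log2 CPM was 0.0756 in FSH livers and 0.511 in vehicle livers. The SD was larger in vehicle for 6 of the 7 genes, and 55.3% of all tested genes had that order. Axin2 had the opposite order, with 0.552 in FSH livers and 0.410 in vehicle livers. For Rnf43 (0.527 in FSH livers and 0.536 in vehicle livers) and Slc1a2 (0.454 in FSH livers and 0.466 in vehicle livers) the SDs were nearly equal. The count was 4 of 7 without FSH replicate 2 or without vehicle replicate 2, and Oat lost that order without vehicle replicate 1. Glul, Tbx3 and Nkd1 kept it whichever single library was left out, a setting chosen after the data were seen. No test of unequal spread was run.

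Vehicle replicate 2 held the highest level of the 9 libraries for 6 of the 8 genes, namely Glul, Slc1a2, Lgr5, Rnf43, Axin2 and Nkd1, and the next to highest for Tbx3. It was the highest library for 14.4% of all tested genes. The median deviation of the 8 genes from their means over all libraries was 0.75 on the log2 scale in that liver, and the corresponding median over all tested genes was 0.00174. In vehicle replicate 4, the lowest library for Glul, Lgr5 and Tbx3, the median deviation was −0.43. With vehicle replicate 2 left out, the median SD about the group means was 0.394.

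**Figure D3:**
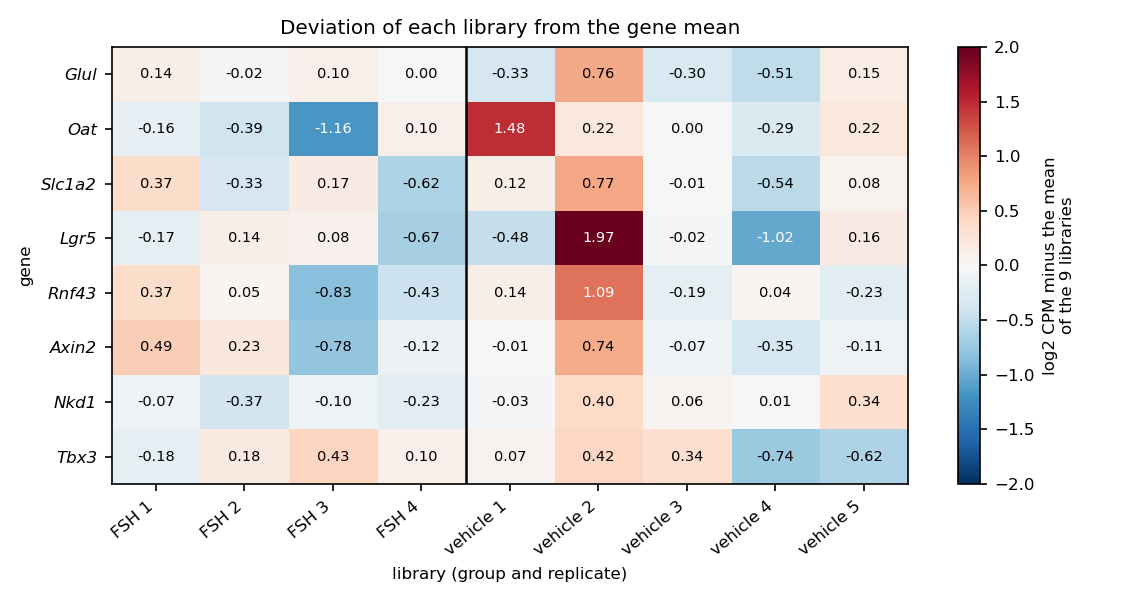
Log2 CPM of each gene (rows) in each library (columns, 4 FSH left of 5 vehicle) minus the mean of that gene over the 9 libraries, with the value printed in each cell and shown by colour. The vehicle 2 column is positive in every row, from 0.22 for Oat to 1.97 for Lgr5.

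Vehicle replicate 2 also had the lowest summed level of some cell type markers. The sum of 11 Kupffer cell and macrophage markers lay between 551 and 861 CPM in FSH livers and between 348 and 916 CPM in vehicle livers. That of 19 central vein and sinusoidal endothelial markers lay between 351 and 441 CPM in FSH livers and between 302 and 389 CPM in vehicle livers. In both cases vehicle replicate 2 gave the lowest value of all 9 libraries, and no marker of these lists was at 0 in all of them. For the Kupffer cell sum the next lowest value was 551 CPM, in FSH replicate 1. For the endothelial sum it was 305 CPM, in vehicle replicate 3, so vehicle replicate 2 did not stand apart there. The hepatocyte sum in vehicle replicate 2 was 214729 CPM, the lowest of the vehicle group, but FSH replicates 2 and 3 were lower, at 214232 and 196506 CPM. The albumin gene Alb alone gave 128571 CPM of the sum in vehicle replicate 2. The part of these differences in the levels of the pericentral genes was not tested.

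Glul, the most widely used marker of the pericentral zone, was set against each of the other 7 genes over the 9 libraries, on log2 CPM with exact 2-sided permutation tests adjusted for 7 comparisons. Lgr5 gave Pearson's r = 0.880 (permutation p = 0.00483, adjusted p = 0.0338) and Spearman's rho = 0.733 (permutation p = 0.0311, adjusted p = 0.218). Slc1a2 followed with r = 0.697 (permutation p = 0.0365, adjusted p = 0.128) and rho = 0.617 (permutation p = 0.0857, adjusted p = 0.300). For Axin2, Rnf43, Nkd1 and Tbx3 r lay between 0.382 and 0.558, and for Oat it was −0.13, with adjusted permutation p of 0.269 or more. When vehicle replicates 2 and 4, the livers farthest from the median of Glul, were left out, r was 0.342 for Lgr5, 0.101 for Slc1a2 and −0.03 for Axin2, with adjusted permutation p = 0.937 in each case. The relation of Lgr5 with Glul did not hold without those 2 animals and rests on them, although leaving out the extremes of Glul also narrows its range. Without vehicle replicate 2 alone r was 0.658. Within groups, as deviations from the group means, r was 0.928 for Lgr5 (adjusted permutation p = 0.0170), 0.856 for Nkd1 and 0.755 for Slc1a2 (adjusted permutation p = 0.0158 for both). On log2 CPM not taken as deviations, r for Nkd1 was 0.461 with all libraries. On that scale it was 0.0618 without vehicle replicates 2 and 4 and −0.03 without vehicle replicate 2 alone. The within-group r was not recomputed without these livers, so its dependence on them is not known.

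Axin2 and Rnf43, a pair chosen after their values were seen, had r = 0.894 over 9 libraries, 0.831 without vehicle replicate 2 and 0.938 without vehicle replicates 2 and 4. Of the 28 pairs among the 8 genes, 12 had r over 0.5 with all libraries and 3 without vehicle replicate 2, and the median r was 0.458 and 0.123. The 3 were Axin2 with Rnf43, Glul with Lgr5 and Lgr5 with Slc1a2. These pairs share libraries and are given as a description.

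**Figure D4:**
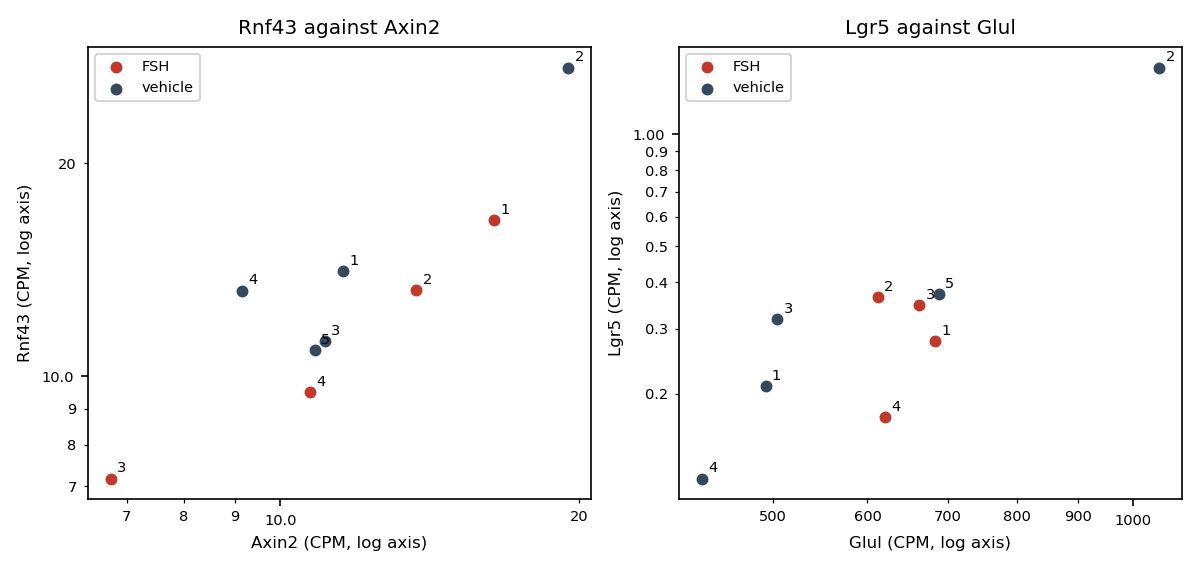
Level of Rnf43 against Axin2 (left panel) and of Lgr5 against Glul (right panel), in CPM on log axes, with 4 FSH livers in red and 5 vehicle livers in blue, labelled by replicate number. Rnf43 and Axin2 fall in nearly the same order from FSH replicate 3 to vehicle replicate 2, while Lgr5 and Glul are spread mainly by vehicle replicates 2 and 4.

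Over the same 9 libraries, the tested genes with the highest r to Glul were Dicer1 (0.925), Fam160b2 (0.924), Fip1l1 (0.916), Utp4 (0.912) and Mrps2 (0.902). These 5 were picked for high r from the 11924 tested genes, so their r is high by choice and carries no test. No gene of the set was among them, and Lgr5 (r = 0.880) was not among the genes searched. Dicer1, which encodes the nuclease that matures microRNAs, ran over a narrower range, from 35.4 to 38.7 CPM in FSH livers and from 34.8 to 42.7 CPM in vehicle livers.

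Upstream of these targets, the Wnt ligands and R-spondins were scarce in whole liver. Of 23 genes in the table, 10 were listed at 0 in all libraries and 5 entered the test, with 0 past the threshold in edgeR or DESeq2 and 1 at an unadjusted p under 0.05. That was Wnt2, an endothelial ligand, at 1.03, 1.01, 0.810 and 0.605 CPM in FSH livers and 0.471, 0.468, 0.530, 0.789 and 0.691 CPM in vehicle livers. Its log2 fold change was 0.55 (SE 0.25, adjusted p = 0.427 in edgeR), and the groups overlapped. Rspo3, the R-spondin of the central vein, averaged 4.67 ± 0.656 CPM with FSH (SD, n = 4) and 5.00 ± 0.650 CPM with vehicle (SD, n = 5), a log2 fold change of −0.09 (SE 0.14, adjusted p = 0.841 in edgeR). Wnt4 had −0.52 (SE 0.28, adjusted p = 0.516 in edgeR), and −0.27 without vehicle replicate 1. For Wnt secretion, the acyltransferase Porcn had 0.31 (SE 0.20) and the carrier Wls −0.15 (SE 0.12), with 0 of the 2 called by edgeR or DESeq2 and 0 at an unadjusted p under 0.05. In vehicle replicate 2, where 6 of the targets were highest, Wnt2 and Wnt4 had their lowest values, 0.468 and 1.48 CPM. Wnt2 was nearly as low in vehicle replicate 1, at 0.471 CPM. In vehicle replicate 2 Rspo3 was at 4.47 CPM and Rspo1 at 0.576 CPM. Wnt9b was at 1.08 CPM there, inside a vehicle range of 0.629 to 1.33 CPM.

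All 11 tested receptors and co-receptors had positive log2 fold changes, with a median of 0.17 against 0.00189 over all genes, but 0 passed in edgeR. It was 10 of 11 when FSH replicate 1, 2 or 4 or vehicle replicate 1 was left out. At an unadjusted p under 0.05 there were 4, and DESeq2 called 1, Lrp6. Lrp6, a co-receptor of Frizzled, averaged 19.8 ± 2.06 CPM with FSH (SD, n = 4) and 14.2 ± 2.29 CPM with vehicle (SD, n = 5), a log2 fold change of 0.48 (SE 0.12, adjusted p = 0.219 in edgeR, DESeq2 adjusted p = 0.0497). FSH replicate 3, at 17.5 CPM, lay below vehicle replicate 3, at 18.0 CPM. Fzd4, a Frizzled receptor, had 0.49 (SE 0.18, adjusted p = 0.363 in edgeR), and Lgr4, an R-spondin receptor of hepatocytes, 0.17 (SE 0.07, adjusted p = 0.377 in edgeR). Lrp5, the other co-receptor, varied from 86.9 to 238 CPM in FSH livers and from 135 to 172 CPM in vehicle livers, with 0.11 (SE 0.23, adjusted p = 0.890 in edgeR).

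Inside the cell, 7 of 11 tested signal transduction genes were positive and 4 negative, with a median of 0.03. None passed in edgeR or DESeq2, and 0 had an unadjusted p under 0.05. Ctnnb1, which encodes beta-catenin, averaged 159 ± 9.24 CPM with FSH (SD, n = 4) and 145 ± 7.30 CPM with vehicle (SD, n = 5), with a log2 fold change of 0.13 (SE 0.07, adjusted p = 0.522 in edgeR). Tnks, a tankyrase that promotes the turnover of axin, had 0.37 (SE 0.17). Among 11 genes of the nuclear complex 6 were positive and 5 negative, and 0 passed in either tool. The smallest p belonged to Ctnnbip1, an inhibitor that keeps beta-catenin from TCF factors, at −0.46 (SE 0.17, adjusted p = 0.364 in edgeR), followed by the hepatocyte nuclear receptor Hnf4a at 0.24 (SE 0.13).

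Of 7 tested secreted inhibitors, 4 were positive and 3 negative, none with an unadjusted p under 0.05 and 0 called by edgeR or DESeq2. The most abundant was Notum, an enzyme that inactivates Wnt proteins and is itself a pericentral Wnt target in mice. It had 54.0, 46.6, 34.1 and 37.0 CPM in FSH replicates 1 to 4 and 33.4, 70.8, 45.3, 26.8 and 66.9 CPM in vehicle replicates 1 to 5, a log2 fold change of −0.18 (SE 0.28, adjusted p = 0.848 in edgeR). As with Glul, vehicle replicate 2 was highest and vehicle replicate 4 lowest. The other inhibitors named had 0.50 (SE 0.36) for Sfrp1, 0.24 (SE 0.19) for Dkk3 and 0.20 (SE 0.17) for Kremen1. Among 12 other Wnt target genes 8 were positive and 4 negative, 0 passed in either tool, and vehicle replicate 2 was the highest library for 4. Myc, a growth regulator with many inputs besides Wnt, had the smallest p of that list, at 11.2, 19.6, 36.9 and 35.1 CPM in FSH livers and 13.6, 17.0, 5.87, 11.4 and 16.2 CPM in vehicle livers (log2 fold change 1.01, SE 0.37, adjusted p = 0.353 in edgeR). Cldn2, a claudin of tight junctions, had 0.35 (SE 0.17).

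The wider zonation genes gave no difference past the threshold. Of 20 other pericentral hepatocyte genes tested, 10 were positive and 10 negative, with a median of −0.00327, 3 at an unadjusted p under 0.05 and 0 past the threshold in edgeR or DESeq2. Without FSH replicate 1, 14 were negative and the median was −0.11. The smallest p-values were those of the carbonic anhydrase Car14 (−0.30, SE 0.10, adjusted p = 0.307 in edgeR), whose groups did not overlap, and the haem synthesis enzyme Cpox (−0.29, SE 0.11, adjusted p = 0.363 in edgeR). Vehicle replicate 2 was highest for 3 of these 20. Of 20 periportal genes 15 were negative, with a median of −0.18, 1 at an unadjusted p under 0.05 and 0 past the threshold in either tool. The median was −0.08 without FSH replicate 3 and −0.07 without vehicle replicate 1, with 13 negative in both cases. The smallest p was that of Tat, tyrosine aminotransferase, which averaged 959 ± 327 CPM with FSH (SD, n = 4) and 1768 ± 764 CPM with vehicle (SD, n = 5), a log2 fold change of −0.88 (SE 0.31, adjusted p = 0.340 in edgeR), and −0.58 without vehicle replicate 2. Arg1, the arginase of the urea cycle, had −0.32 (SE 0.17). Among 19 genes of glutamine, proline and ammonia handling, 9 were positive and 10 negative (12 positive without FSH replicate 3 and 11 positive without vehicle replicate 1), 0 passed in either tool and 1 had an unadjusted p under 0.05. That was Pycrl, of the proline synthesis reductase family, at 0.24 (SE 0.09, adjusted p = 0.363 in edgeR). Slc38a3, a glutamine transporter, had 0.14 (SE 0.08, adjusted p = 0.547 in edgeR).

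**Figure D5:**
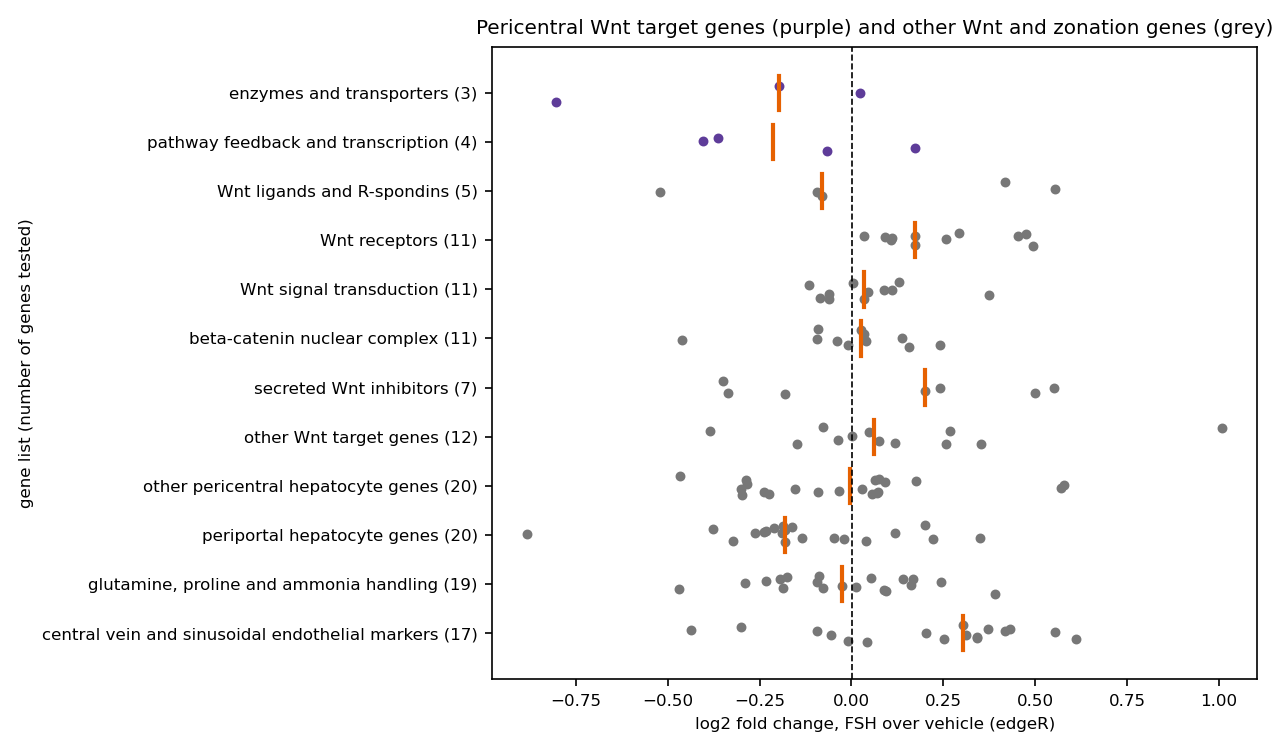
Log2 fold change, FSH over vehicle (horizontal axis), of each tested gene in the pericentral Wnt target set (purple, in both its groups) and in 10 lists of Wnt pathway, zonation and endothelial genes (grey), with the number tested after each name. Orange bars are list medians and the dashed line is the median of all 11924 genes, 0.00189. The receptor list lies wholly to the right of that line.

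Among markers of cells next to the pericentral hepatocytes, 12 of 17 tested endothelial genes were positive, with a median of 0.30 and 0 past the threshold in edgeR. At an unadjusted edgeR p under 0.05 there were 5, where 11.6% of all tested genes lay. Without FSH replicate 1 the median was 0.17 and 11 were positive. The list shares Wnt2, Wnt9b and Rspo3 with the ligands above, and Wnt2 is among the 5. Clec4g, a sinusoidal lectin, had the smallest p at 0.61 (SE 0.13, adjusted p = 0.190 in edgeR, DESeq2 adjusted p = 0.00820), and the scavenger receptor Stab1 had 0.43 (SE 0.11). Some of the receptors and ligands above are made by these endothelial cells, and the part of the marker difference in their values was not tested.

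Other cell types gave 0 genes past the threshold in edgeR. Stellate cell markers were negative in 15 of 17 (median −0.15, 2 at an unadjusted p under 0.05, 1 called by DESeq2), among them the collagens Col3a1 (−0.45, SE 0.11) and Col1a1 (−0.92, SE 0.37, and −0.49 without vehicle replicate 4). Cholangiocyte markers were negative in 6 of 10 (median −0.18, 2 at an unadjusted p under 0.05, 1 called by DESeq2), with Prom1 at 1.42 (SE 0.34, and 0.90 without FSH replicate 1) and Onecut1 at 1.27 (SE 0.43). The cholangiocyte median was −0.36 without FSH replicate 2 and −0.05 without vehicle replicate 2. Kupffer cell markers had no stable direction. Of 11, 8 were negative (median −0.04, none at an unadjusted p under 0.05 or called by DESeq2), but 8 were positive without FSH replicate 1 (median 0.09), 6 without FSH replicate 4 or vehicle replicate 1, and 7 of the 10 still tested without vehicle replicate 5. Timd4 was at 0.80 (SE 0.62) and Cd68 at −0.28 (SE 0.26). Hepatocyte markers were negative in 7 of 12 (2 at an unadjusted p under 0.05, 0 called by DESeq2), with Fgb at 0.55 (SE 0.18) and Asgr1 at 0.26 (SE 0.10). All 4 erythroid genes tested were positive (1 at an unadjusted p under 0.05 and called by DESeq2), with a median of 0.84, Hbb at 1.54 (SE 0.35) and Hba-a2 at 0.80 (SE 0.38). Without FSH replicate 3, the liver with the highest erythroid sum, the median was 0.11, 3 of 4 were positive and Hba-a2 was at 0.19. Genes of adjacent tissues were negative in 2 of 3 tested, with Fabp2 at −0.21 (SE 0.24) and Cpa1 at 0.38 (SE 0.48, and 0.11 without vehicle replicate 3), and 5 of 11 in the table were at 0 in all libraries.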

How the data were processed

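The authors deposited whole-number read counts per gene for 9 liver libraries, without normalisation. STAR, edgeR, DESeq2 and the rat build rn6 appear in the submitters' processing notes without versions or roles, and neither annotation nor strand setting is given in the sources used here. Columns were matched to samples by their labels, and genes by symbol.

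Counts were fitted in R 4.3.3 with edgeR 4.0.16 (quasi-likelihood F-test, 2-sided, TMM scaling, low-count filter by group, Benjamini-Hochberg over all 11924 genes kept, threshold 0.05). The standard error is the fold change divided by the root of F. A count was worth 0.0353 to 0.0532 CPM. Log2 CPM used a prior count of 2. The steps were tested on simulated data. Alternatives were DESeq2 1.42.0, other scalings, no filter, a replicate block and leaving out each animal.

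All 8 genes of the set with a row are named. From other lists the genes past the threshold are named, or else the 2 smallest p-values, with the 2 most abundant ligands, receptors and inhibitors, and the 5 genes most like Glul. Genes and lists were chosen with earlier results of these data known.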

Additional observations from a re-analysis of the deposited data

Results flagged for a closer look

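In 4 of 30 sets of values, an animal stood far from the others of its group, where chance gives about 1.5. All 4 were in the vehicle group. Oat was at 1571 CPM in vehicle replicate 1, where the next vehicle liver had 656 CPM. Vehicle replicate 2 stood apart for Axin2 (19.5 CPM, next 11.6 CPM), Lgr5 (1.51 CPM, next 0.372 CPM) and Rnf43 (27.3 CPM, next 14.1 CPM). These 3 values come from the same library and are not independent.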

How the results depend on the processing

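No tested gene of the set passed the threshold in any alternative fit. Over all genes, 4 passed in the main edgeR analysis, 184 with DESeq2 and 5 with a replicate block. Leaving out 1 animal gave 0 to 4 genes, with 0 without FSH replicate 1 or 3 or vehicle replicate 1 or 4, 1 without FSH replicate 4 and 2 without vehicle replicate 3 or 5. Replicate numbers are not said to pair the animals. Same-numbered libraries had correlations of their deviations from the group means between −0.0407 and 0.0351. Values near 0 cannot decide whether the animals were paired. The replicate block changed no call in the set. With it, 9 of 11 Kupffer cell markers were positive (median 0.15).

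Some small fold changes turned their sign. Glul was −0.00598 when scaled by library totals alone, and Notum 0.0329 with a replicate block. On leaving out 1 animal, Glul ranged from −0.0911 to 0.28, Axin2 from −0.26 to 0.16, Slc1a2 from −0.37 to 0.0170, Lrp5 from −0.16 to 0.31 and Timd4 from −0.0252 to 1.11. Oat ranged from −0.98 to −0.38, Rnf43 from −0.63 to −0.09, Nkd1 from −0.41 to −0.30 and Tbx3 from 0.03 to 0.31, all without a change of sign. The cause was not tested.

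Correlations with Glul moved most. Without the 2 libraries farthest from its median, r was 0.342 for Lgr5, −0.0317 for Axin2, −0.46 for Tbx3 and −0.20 for Rnf43. As deviations from group means, Nkd1 (0.856) and Slc1a2 (0.755) passed with an adjusted permutation p of 0.0158 each, as did Lgr5 (0.928, adjusted permutation p = 0.0170), which also passed with all libraries. Few counts limit Lgr5 (94 over all libraries) and Nkd1 (676). The median spread within groups ranged from 0.394 to 0.498 on leaving out 1 animal.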

Other observations

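Some genes outside the set had their lowest or highest value in vehicle replicate 2, and were picked after their values were seen. Cyp8b1, the sterol 12-alpha-hydroxylase of bile acid synthesis, lay between 573 and 836 CPM in FSH livers and between 260 and 898 CPM in vehicle livers, with its lowest value in vehicle replicate 2. Cyp8b1 belongs to the list of other pericentral hepatocyte genes above, and its r with Glul over the 9 libraries was −0.90. Cyp2e1, an abundant pericentral cytochrome P450, lay between 4395 and 6083 CPM in FSH livers and between 3336 and 6576 CPM in vehicle livers. Its highest value, in vehicle replicate 2, was close to the 6181 CPM of vehicle replicate 3. Ccnd1, cyclin D1, ranged from 13.2 CPM in replicate 3 to 101 CPM in replicate 1 among FSH livers, and from 43.0 to 115 CPM among vehicle livers, where replicate 2 was highest. The lowest and highest livers for Ccnd1 were thus the same as for Axin2 and Rnf43.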
